A study of Mus musculus with 8 samples.

Results

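The genes described here copy DNA and carry cells from G1 into S phase. They were 48 genes, chosen by name from textbook roles, and all 48 were found among the 13848 features kept on the arrays. The cells were Ba/F3, an established murine line of pro-B origin that grows on the cytokine IL3, and their mRNA was hybridised with 1 dye to 1 Agilent array per sample. They expressed FLT3, a receptor tyrosine kinase of blood progenitors, either with an internal tandem duplication, written FLT3/ITD, or as the wild type. All were grown with IL3, washed free of it and held for 4 h in albumin medium, either with 100 ng/ml recombinant murine Cxcl12 or without it. The 4 groups, of 2 arrays each, were FLT3/ITD cells with Cxcl12, FLT3/ITD cells without it, wild type FLT3 cells with Cxcl12 and wild type FLT3 cells without it. The arrays came from 2 slides (set 1 and set 2), and a group sat at the same position on both. The duplication is labelled N51 on the first slide and N78 on the second, so ITD and slide cannot be told apart, and neither can group and array position. The sources used here do not say which promoter drove FLT3 or whether a line was 1 clone.

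Replication starts at origins bound by the origin recognition complex, where Cdc6 and Cdt1 load the MCM2-7 helicase in G1. At the G1/S boundary the kinase Cdc7 with Dbf4, Cdc45 and the GINS complex switch the helicase on, and the polymerases, the clamp Pcna and its loader, the RFC complex, then copy both strands. Many of these genes are transcribed by E2F factors when RB family proteins let go of them, so their mRNAs are widely read as signs of cycling cells.

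All values below are log2 intensities relative to the 75th percentile of their array, and differences are on the same log2 scale, FLT3/ITD minus wild type or with minus without Cxcl12. SE is the standard error of limma's fit over all features, and adjusted p is Benjamini-Hochberg over all 13848. Every used probe of the 48 genes was well above background on all 8 arrays. These were the brightest kept probes of their genes, and no like share over all genes is given. Of all spots other than controls, with no such choice, 49.2% to 54.9% were well above background on a single array. Of 12 pro-B markers 5 were so on all 8 arrays (Cd79a, Cd79b, Vpreb1, Ptprc and Il3ra), while 6, Pax5, Ebf1, Rag1, Igll1, Il7r and Cd24a, were so on none. Of 8 mast cell and basophil markers 5 were so on all arrays, of 6 monocyte and macrophage markers 3, and of 6 T cell markers 3. In FLT3/ITD cells the mast cell proteases Mcpt8 (-4.40, adjusted p = 0.000163) and Cma1 (-2.90, adjusted p = 0.000504) fell, as did the pro-B list's Ptprc (-0.55, adjusted p = 0.0414), and the myeloid lysozyme Lyz2 (2.57, adjusted p = 0.000504) rose. All 7 mast cell markers kept were below 0, 3 of 6 pro-B markers, and 3 of 4 monocyte and macrophage markers, Lyz2 being the exception. The summed level of the mast cell markers, as a multiple of the 75th percentile, was 45.1 to 135.3 in FLT3/ITD cells with Cxcl12 and 51.03 to 134.4 without it, against 204.3 to 323.3 in wild type cells with Cxcl12 and 257.2 to 357.9 without it. The sum of the pro-B markers was 23.5 to 25.7 and 24.1 to 28.7 in FLT3/ITD cells with and without Cxcl12, against 29.8 to 33.4 and 32.2 to 41.8 in wild type cells. The part of these differences in the results below was not tested. In RNA of whole cultures fewer cells in S phase and less mRNA per cell cannot be told apart.

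Promoter windows were searched by sequence alone. The genes were chosen by role, and many such genes are transcribed by E2F factors. The share of E2F words among them is therefore not independent of that choice. The RefSeq table for GRCm38.p6 held a window from 250 bases before to 50 bases after the start for 40 of the 48 genes. Gmnn, Mcm4, Gins1, Gins2, Gins4, Prim2, Pole and Rfc2 had no entry. The E2F words TTTGGCGC, TTTGCCGC, TTTCGCGC and TTTCCCGC were searched on both strands. At least 1 stood in 15 of the 40 genes (37.5%), against 704 of all 27025 genes with a window (2.61%). The 15 were Orc1, Cdc6, Cdt1, Mcm3, Mcm5, Mcm6, Mcm7, Gins3, Pola1, Pold1, Rfc3, Lig1, Uhrf1, E2f2 and Cdc25a. The CCAAT box (CCAAT) stood in 62.5% of the 40 against 41.1% of all, and the cell cycle homology region (TTTGAA) in 17.5% against 20.2%. Windows of Cdc6 and Rfc3 are printed because both genes were among those with the most positive Cxcl12 differences. Cdc25a (0.72, with 1 E2F word) and Chaf1b (0.64, with no E2F word) had larger differences, and their windows are not printed. The window of Mcm6 is printed because it held the most E2F words of the 15 genes. That of Cdc45 is printed because it had no such word and the most negative N51 minus N78 difference among genes with a window. Capitals mark E2F words, and in Mcm6 the words at -110 and -106 overlap.

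Cdc6, chr11:98907901-98908200, + strand, with 1 word at -138: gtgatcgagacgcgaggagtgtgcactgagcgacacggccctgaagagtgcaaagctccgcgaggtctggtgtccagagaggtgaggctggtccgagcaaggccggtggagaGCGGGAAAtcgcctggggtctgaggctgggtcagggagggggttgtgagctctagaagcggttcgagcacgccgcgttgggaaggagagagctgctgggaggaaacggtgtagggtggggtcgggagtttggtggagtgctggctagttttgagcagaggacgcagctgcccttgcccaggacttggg
Rfc3, chr5:151651159-151651458, - strand, with words at -10 and 1: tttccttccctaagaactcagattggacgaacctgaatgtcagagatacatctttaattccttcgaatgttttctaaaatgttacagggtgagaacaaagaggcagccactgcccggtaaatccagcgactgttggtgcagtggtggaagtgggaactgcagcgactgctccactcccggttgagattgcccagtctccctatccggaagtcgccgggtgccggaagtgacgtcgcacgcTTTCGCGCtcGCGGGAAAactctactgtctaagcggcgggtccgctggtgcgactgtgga
Mcm6, chr1:128359656-128359955, - strand, with words at -110, -106 and -47: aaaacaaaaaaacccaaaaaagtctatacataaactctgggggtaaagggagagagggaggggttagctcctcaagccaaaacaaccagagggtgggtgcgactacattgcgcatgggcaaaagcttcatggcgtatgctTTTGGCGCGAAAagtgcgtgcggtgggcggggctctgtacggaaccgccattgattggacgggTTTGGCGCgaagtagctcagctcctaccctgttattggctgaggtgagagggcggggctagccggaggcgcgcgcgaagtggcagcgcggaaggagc
Cdc45, chr16:18811923-18812222, - strand, with no such word: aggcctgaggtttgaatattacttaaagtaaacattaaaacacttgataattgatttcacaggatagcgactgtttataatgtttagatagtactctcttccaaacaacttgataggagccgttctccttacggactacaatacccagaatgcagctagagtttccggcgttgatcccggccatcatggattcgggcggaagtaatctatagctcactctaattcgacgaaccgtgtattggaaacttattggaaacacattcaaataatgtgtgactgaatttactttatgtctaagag

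The differences of genes with and without such a word overlapped in range. For FLT3/ITD minus wild type, averaged over cells with and without Cxcl12, the median was -0.07 with a word and 0.01 without. The 15 genes with an E2F word had a median Cxcl12 difference of 0.13, averaged over both kinds of cells, and the 25 without one a median of 0.20. For the difference between N51 and N78 described below the medians were -0.25 and -0.26. These are descriptions of 40 genes with no test.

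In FLT3/ITD cells the levels of replication mRNAs, averaged over both ITDs, lay on either side of those in wild type cells, and only Rfc2 passed the test. Averaged over cells with and without Cxcl12 (4 arrays against 4), 0 of 48 genes rose and 1 fell, against 6.14% of all features past the test (3.57% higher and 2.57% lower). The median of the 48 genes was -0.01, as it was for all features, with 23 differences above 0 (48.9% of all features) and 25 below. With each array scaled to its median instead, 32 were above and 16 below 0 while all features lay at 0.12, and with quantile normalization 13 were above and 35 below. Leaving out single arrays gave from 9 of 48 above 0, without the N78 array without Cxcl12, to 32, without the N51 array without Cxcl12. Without the wild type array without Cxcl12 of set 2 there were 16. In cells with Cxcl12 alone 0 of 48 passed, against 0.838% of features, and without Cxcl12 0 of 48, against 0.505%. At an unadjusted p under 0.05 there were 2 of 48 on average, against 26.2% of features, 2 with Cxcl12, against 18.2%, and 1 without, against 12.3%.

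Rfc2 encodes a subunit of the clamp loader that opens Pcna and sets it on DNA. Its used probe lies on chromosome 5 from 135074132 to 135074191 (mm9, as in the files). In set 1 it had 4.95 with and 4.85 without Cxcl12 in FLT3/ITD cells, against 5.48 with and 5.52 without Cxcl12 in wild type cells. In set 2 the values were 5.22 and 5.48 in FLT3/ITD cells, against 5.81 and 5.86 in wild type cells. Both FLT3/ITD arrays thus lay below both wild type arrays in each set. Rfc2 fell by 0.54 (SE 0.13, adjusted p = 0.0428), a fold of 0.69. Its other probe, on chromosome 5 from 135073809 to 135073868, had an average ITD difference of -0.48 (SE 0.14). Leaving out any 1 of the 8 arrays ended the call, with differences of -0.62 to -0.46. Such fits also have fewer residual degrees of freedom, so this does not show which arrays the call rests on. The call was also lost without the array set in the fit (adjusted p = 0.961) and with median scaling (-0.41, adjusted p = 0.140). With normexp background correction the value was -0.12.

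Beside Rfc2, 4 genes had both FLT3/ITD arrays below both wild type arrays in each set, so 5 of the 47 genes measured on all arrays, close to the share of all features, 9.83%. They were Uhrf1, E2f1, Prim1 and Pola2. No gene of the 47 had both arrays higher, against 9.8% of features. Uhrf1, which guides maintenance DNA methylation at the fork, had 5.15 with and 5.29 without Cxcl12 in N51 cells, against 5.84 and 5.51 in wild type cells of that set. It had 5.09 and 5.14 in N78 cells, against 5.35 and 5.31 in wild type cells, and its average ITD difference of -0.33 (SE 0.13, adjusted p = 0.144) did not pass. E2f1, the E2F factor best known for driving S phase entry, had 0.09 and -0.34 in N51 cells with and without Cxcl12, against 0.27 and 0.21 in wild type cells. In N78 cells it had 0.42 and 0.45, against 0.81 and 0.54, and its difference was -0.31 (SE 0.16, adjusted p = 0.262). Prim1, the catalytic subunit of primase, had a difference of -0.22, and its values with and without Cxcl12 were 4.80 and 4.50 in N51 cells, against 5.0 and 4.98 in wild type cells, and 4.60 and 4.57 in N78 cells, against 4.65 and 4.72.

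**Figure D1:**
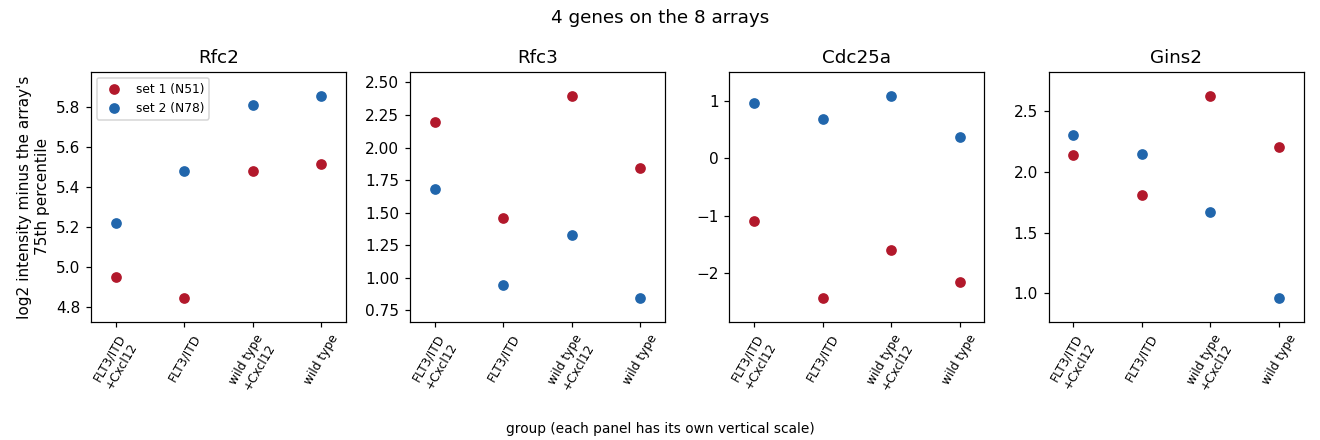
Log2 intensity minus the array's 75th percentile (vertical axis, a scale of its own in each panel) of Rfc2, Rfc3, Cdc25a and Gins2 in the 4 groups (horizontal axis); each point is 1 array, red for set 1 (N51) and blue for set 2 (N78). Rfc2 is lower on each FLT3/ITD array than on the wild type arrays of its set, Rfc3 and Cdc25a are higher with Cxcl12 in each pair, and Gins2 lies below wild type in N51 cells and above it in N78 cells.

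The average joins differences that ran opposite ways in the sets. In the N51 cells of set 1 the average ITD difference was positive for 5 of 47 genes, against 46.8% of features, and in the N78 cells of set 2 for 31 of 48, against 50.8%. In set 1 it was positive for 19 of 47 genes with Cxcl12 (54.1% of features) and 2 of 48 without it (39.2%), and in set 2 for 28 of 48 with Cxcl12 (52.6%) and 35 of 48 without it (49.7%). The difference of N51 to its wild type arrays minus that of N78 to its own had a median of -0.33 over the 48 genes, against -0.03 over all features, and it was negative for 42 of 48, against 52.9%. No single gene passed this test of the difference, while 0.412% of features did. At an unadjusted p under 0.05 there were 10 of 48, against 13.9% of features. N51 below and N78 above wild type, both with and without Cxcl12, held for 12 of 47 genes, against 7.6% of features, and the reverse for 0, against 5.41%. The 12 were Orc1, Gmnn, Mcm4, Mcm6, Gins1, Gins2, Gins4, Rfc3, Rpa1, Fen1, Tyms and Tk1.

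Gins2, Cdc45 and Gins1, which help switch the helicase on, had the largest such differences. Cdc45, which travels with MCM2-7 and GINS, had 1.27 with and 1.70 without Cxcl12 in N51 cells, against 1.87 and 1.59 in wild type cells of set 1. In N78 cells it had 1.42 and 1.25, against 0.66 and 0.32 in wild type cells of set 2. N78 cells were thus above wild type in both conditions, and N51 cells below it only with Cxcl12, which gave a set difference of -1.09 (SE 0.31, adjusted p = 0.182). Gins2, a GINS subunit named here after its values were seen, had 2.14 and 1.81 with and without Cxcl12 in N51 cells, against 2.63 and 2.20, and 2.31 and 2.15 in N78 cells, against 1.67 and 0.96. Its set difference of -1.35 (SE 0.28, adjusted p = 0.106) was the largest of the 48 in size and did not pass. It passed with median scaling (adjusted p = 0.0206) and with the authors' tables (0.0210). Without the N51 array without Cxcl12 the Gins2 set difference was -1.26, and without the one with it -1.44. Cdc45 had -1.39 without the array of FLT3/ITD cells without Cxcl12 of set 1 or of set 2. Such a fit gives the same value whichever set the array is taken from, since the array left unpaired no longer enters the difference.

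Gins1 had 2.19 and 1.55 in N51 cells with and without Cxcl12, against 2.57 and 2.14, and 2.65 and 2.53 in N78 cells, against 2.38 and 1.88. Its set difference was -0.95 (SE 0.29, adjusted p = 0.217), and that of Gins4 was -0.76. Of the GINS subunits only Gins3 lay below wild type in both ITDs, at -0.34 in set 1 and -0.12 in set 2. In the whole group of 14 helicase genes 13 had a negative set difference, with a median of -0.46. Mcm2, a helicase subunit, lacks the N51 array with Cxcl12, whose spot was marked as an outlier, so its fit rests on 7 arrays. It had 3.64 in N51 cells without Cxcl12, against 4.23 with and 4.07 without Cxcl12 in wild type cells, and 4.04 and 4.06 with and without Cxcl12 in N78 cells, against 3.95 and 3.74. The authors' tables include the missing spot and gave Mcm2 a set difference of -1.88 (adjusted p = 0.0023). Mcm2 did not pass when outlier spots were kept under the scaling used here.

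The set differences of the kinase pair were small in size. Cdc7 had 2.08 and 2.01 in N51 cells with and without Cxcl12, against 2.59 and 1.91 in wild type cells, and 1.65 and 1.5 in N78 cells, against 1.56 and 2.13. Its set difference was 0.07 (SE 0.40). That sign was kept in 12 of 18 settings of the analysis, with values from -0.56 to 0.70. The average ITD difference of Cdc7, -0.24, was the lowest of the helicase group. Dbf4, which activates Cdc7, had a set difference of -0.12, with ITD differences of -0.18 in set 1 and -0.05 in set 2.

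**Figure D2:**
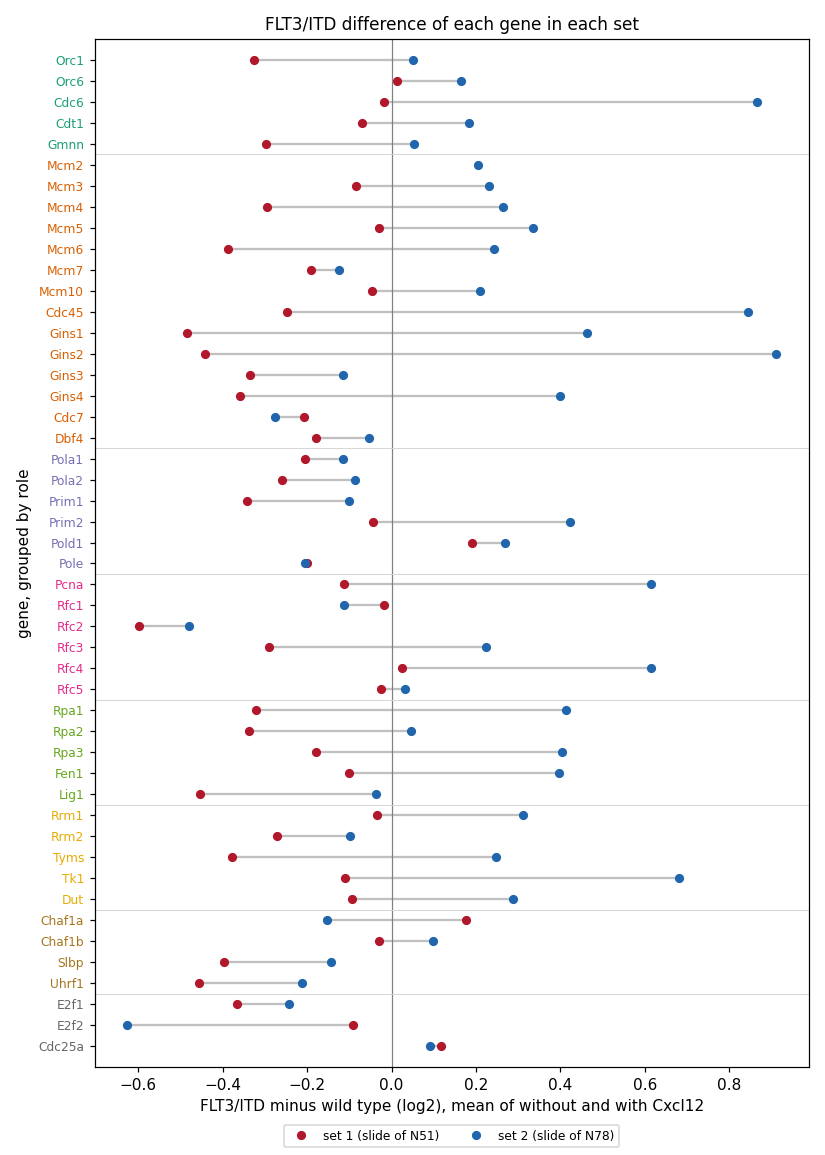
FLT3/ITD minus wild type difference (horizontal axis, log2, mean of cells with and without Cxcl12) of each gene (vertical axis, grouped and coloured by role), red for set 1 (N51) and blue for set 2 (N78), joined by a grey line; each point rests on 2 arrays against 2, and Mcm2 has no set 1 point. In set 1 5 of 47 points lie above 0 and in set 2 31 of 48 do, while Rfc2 lies below 0 in both.

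Among the origin genes Cdc6, the loader that brings MCM2-7 to origins, had the highest average ITD difference of the 48, 0.42 (SE 0.22, adjusted p = 0.247). It came from set 2, where N78 cells had 1.74 with and 1.44 without Cxcl12, against 0.96 and 0.50 in wild type cells. In set 1 N51 cells had 1.56 and 0.75, against 1.46 and 0.89. These are values of the used probe. A second kept probe had an average ITD difference of 0.19 (SE 0.17) and a set difference of -0.18 (SE 0.33). On it N78 cells had 0.12 with and -0.90 without Cxcl12, against -0.46 and -0.88 in wild type cells. Orc1, the largest subunit of the origin recognition complex, had 0.11 and -0.73 in N51 cells with and without Cxcl12, against 0.14 and -0.12, and -0.88 and -1.08 in N78 cells, against -0.96 and -1.10. N51 cells without Cxcl12 stood apart from the other 3 arrays of that set for this gene. All 5 origin genes had negative set differences, from -0.88 for Cdc6 to -0.15 for Orc6.

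The 6 polymerase and primase genes had smaller set differences, with a median of -0.13. Pold1, the catalytic subunit of the lagging strand polymerase delta, had the highest average ITD difference of the group, 0.23 (SE 0.15, adjusted p = 0.365). Its levels were 4.95 and 4.36 in N51 cells with and without Cxcl12, against 4.47 and 4.47, and 4.48 and 4.59 in N78 cells, against 4.28 and 4.25. Prim1 had the lowest. The values of Pole, the catalytic subunit of the leading strand polymerase, were alike in the sets, at -0.20 each.

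Of the clamp and its loader, Pcna had 6.30 and 5.64 in N51 cells with and without Cxcl12, against 6.18 and 5.98, and 6.44 and 6.25 in N78 cells, against 5.99 and 5.47. The ITD difference was thus -0.11 in set 1 and 0.61 in set 2, and the set difference of -0.73 (SE 0.26, adjusted p = 0.275) did not pass. Rfc4, another loader subunit, had 3.80 and 3.61 in N51 cells with and without Cxcl12, against 3.62 and 3.74, and 4.12 and 3.80 in N78 cells, against 3.54 and 3.15. Its ITD difference was 0.025 in set 1 and 0.61 in set 2, and 0.32 on average (SE 0.18, adjusted p = 0.282). Rfc2 thus lay below wild type in both sets, while Rfc4 lay above it in set 2. In set 1 Rfc4 was above wild type with Cxcl12 (0.18) and below it without (-0.13).

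At the fork's single strands, Rpa1 to Rpa3 coat the DNA and Fen1 and Lig1 trim and join Okazaki fragments. All 5 genes had negative set differences, with a median of -0.50. Fen1 had 3.03 and 2.48 in N51 cells with and without Cxcl12, against 3.04 and 2.68, and 3.48 and 3.34 in N78 cells, against 3.40 and 2.63. Its average ITD difference of 0.15 was the highest of these genes. Lig1 had the lowest, -0.25 (SE 0.14, adjusted p = 0.309), from 5.28 and 5.13 in N51 cells, against 5.67 and 5.64, and 5.38 and 5.60 in N78 cells, against 5.56 and 5.50.

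The nucleotide supply genes also had 5 of 5 negative set differences, with a median of -0.38. Tk1, thymidine kinase of the salvage pathway, had 3.52 and 3.20 in N51 cells with and without Cxcl12, against 3.71 and 3.22, and 4.31 and 4.52 in N78 cells, against 4.00 and 3.47. It had an average ITD difference of 0.29 (SE 0.20, adjusted p = 0.391), with -0.11 in set 1 and 0.68 in set 2. Tyms, thymidylate synthase, had 5.32 and 4.77 in N51 cells, against 5.55 and 5.30, and 5.08 and 4.97 in N78 cells, against 4.93 and 4.63. Rrm2, the regulated subunit of ribonucleotide reductase, had an average ITD difference of -0.19 (SE 0.16). Unlike Tk1 and Tyms its mean ITD difference was below 0 in both sets, though in N78 cells without Cxcl12 it was 0.03. It had 3.97 and 4.34 in N51 cells, against 4.38 and 4.47, and 3.36 and 3.19 in N78 cells, against 3.59 and 3.16.

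Of the 4 chromatin genes 3 had negative set differences, with a median of -0.19. Slbp, which binds the stem-loop of histone mRNAs, had -0.25, Uhrf1 -0.24 and Chaf1b, a subunit of the histone chaperone CAF-1, -0.13, while Chaf1a, its partner, had 0.33. Of the 3 regulators 1 was negative, E2f1, with a median of 0.03 over the group. E2f2, an activator of the E2F family, had a set difference of 0.54 (SE 0.27, adjusted p = 0.408). Its levels were 2.74 and 2.65 in N51 cells with and without Cxcl12, against 2.70 and 2.87, and 2.54 and 2.65 in N78 cells, against 3.11 and 3.34. E2f2 was thus below wild type in N78 cells by 0.63, where most replication genes were above it.

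The levels of the genes moved together on single arrays. Relative to the mean of its set, the median of the genes was -0.25 on the N51 array without Cxcl12, with 4 of 47 genes above that mean. Over all features it was -0.05 on that array. It was -0.16 on the wild type array without Cxcl12 of set 2 (-0.02 over all features), with 10 of 48 genes above. The highest was 0.20, on the wild type array with Cxcl12 of set 1 (-0.02 over all features), with 38 of 47 genes above. The other 5 arrays, with and without Cxcl12, had medians of 0.02 to 0.09. Without the array of FLT3/ITD cells without Cxcl12 of either set, the set difference was negative for 32 and positive for 15 of 47 genes. These 2 fits give the same values, since of the FLT3/ITD arrays only those with Cxcl12 then enter the difference. Over all arrays left out in turn the median of the set difference ran from -0.56 to -0.11. Mitosis and G2/M genes, which act after replication, had a like median set difference of -0.34, with 25 of 31 negative.

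**Figure D3:**
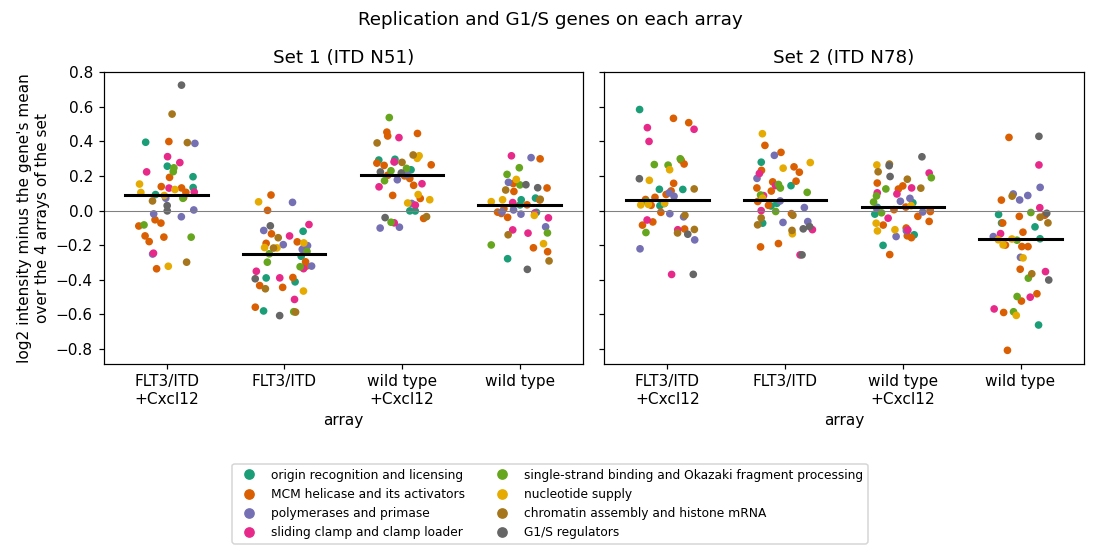
Log2 intensity of each gene minus its mean over the 4 arrays of the set (vertical axis) on each array (horizontal axis), for set 1 (left) and set 2 (right); points are genes coloured by role and black bars are medians. The N51 array without Cxcl12 has the lowest median, -0.25, and the wild type array without Cxcl12 of set 2 the next, -0.16.

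With Cxcl12 most replication genes had slightly higher levels, and none passed the test. These differences use the same 8 arrays as the ITD differences, so a low array without Cxcl12 enters both. Averaged over both kinds of cells (4 arrays against 4), 0 of 48 genes passed, against 0.383% of all features. The differences were above 0 for 42 of 48 genes, against 51.1% of features, with a median of 0.18, against 0.01. They were above 0 in both sets for 26 of 47, against 33.2%, with set medians of 0.25 and 0.08. Leaving out single arrays left 34 (without the N51 array without Cxcl12) to 44 genes above 0, with a median of 0.07 to 0.28. At an unadjusted p under 0.05 there were 6 of 48, against 14.8% of features. In FLT3/ITD cells 37 of 48 were above 0, against 55.6% of features, with 42 of 47 in set 1, against 55.8%, and 25 of 48 in set 2, against 50.5%. Without the N51 array without Cxcl12, 20 of 48 were above 0 and 28 below. In wild type cells 41 were above 0, against 47.9%, and 31 in both sets, against 27.7%. Without the wild type array without Cxcl12 of set 2 there were 27, with a median of 0.034, and without the one with Cxcl12 of set 1 there were 30. In each kind of cell 0 of 48 passed, against 0% of features in FLT3/ITD cells and 0.065% in wild type cells.

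Normexp background correction turned this direction, with 13 of 48 above 0 and a median of -0.15. On 1 array, wild type with Cxcl12 in set 2, 4 spots had a local background over 1000 above their signal, and without these spots the same correction gave 43 of 48 above 0 and a median of 0.15. That alternative was chosen after seeing the data.

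Cdc25a, the phosphatase that frees Cdk2 for S phase entry, had the largest Cxcl12 difference, 0.72 (SE 0.20, adjusted p = 0.146). In FLT3/ITD cells it had -1.10 with and -2.44 without Cxcl12 in set 1 and 0.96 against 0.68 in set 2. In wild type cells it had -1.60 with and -2.17 without Cxcl12 in set 1 and 1.09 against 0.38 in set 2. Every array with Cxcl12 lay above both arrays without it in its set, though the sets lay far apart in level on this used probe. A second kept probe had a Cxcl12 difference of 0.62 (SE 0.21). On it the sets lay closer, with -1.64 in set 1 and -1.17 in set 2 in wild type cells without Cxcl12.

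Rfc3, a clamp loader subunit, had 2.20 with and 1.46 without Cxcl12 in N51 cells and 1.68 against 0.94 in N78 cells. In wild type cells it had 2.40 with and 1.84 without Cxcl12 in set 1 and 1.33 against 0.85 in set 2. The difference was 0.63 (SE 0.17, adjusted p = 0.136), with 0.65 in set 1 and 0.61 in set 2. Chaf1b had 4.60 with and 3.45 without Cxcl12 in N51 cells, 4.37 against 4.21 in N78 cells, and in wild type cells 4.36 against 3.75 and 4.51 against 3.88. Its difference of 0.64 (SE 0.17, adjusted p = 0.146) was larger in set 1, at 0.88, than in set 2, at 0.39.

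With these, 6 of 47 genes had all arrays with Cxcl12 above all arrays without it in both sets, against 6.14% of features, namely Orc1, Rfc3, Rpa2, Fen1, Chaf1b and Cdc25a. That count is above the share of all features, but no gene passed. Rpa2, a single strand binding subunit, had 3.43 with and 2.60 without Cxcl12 in N51 cells, 2.71 against 2.65 in N78 cells, and in wild type cells 3.72 against 2.99 and 2.78 against 2.48. Its difference was 0.48 (SE 0.18, adjusted p = 0.266), and that of Fen1 was 0.46 (SE 0.17, adjusted p = 0.265).

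Cdc6 had a difference of 0.54 (SE 0.22, adjusted p = 0.290). Its 2 probes had the same sign and different sizes, and the second, on chromosome 11 from 98785169 to 98785228, had 0.94 (SE 0.17). On that probe the levels were 0.67 with and -0.82 without Cxcl12 in N51 cells, 0.12 against -0.90 in N78 cells, and in wild type cells 0.23 against -0.59 and -0.46 against -0.88. Pola1, the catalytic subunit of polymerase alpha, went the other way, as the only gene lower with Cxcl12 on all arrays of both sets (1 of 47, against 5% of features). It had 4.04 with and 4.33 without Cxcl12 in N51 cells, 3.09 against 3.32 in N78 cells, and in wild type cells 4.19 against 4.59 in set 1 and both near 3.32 in set 2. Its difference of -0.23 (SE 0.14, adjusted p = 0.484) did not pass.

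**Figure D4:**
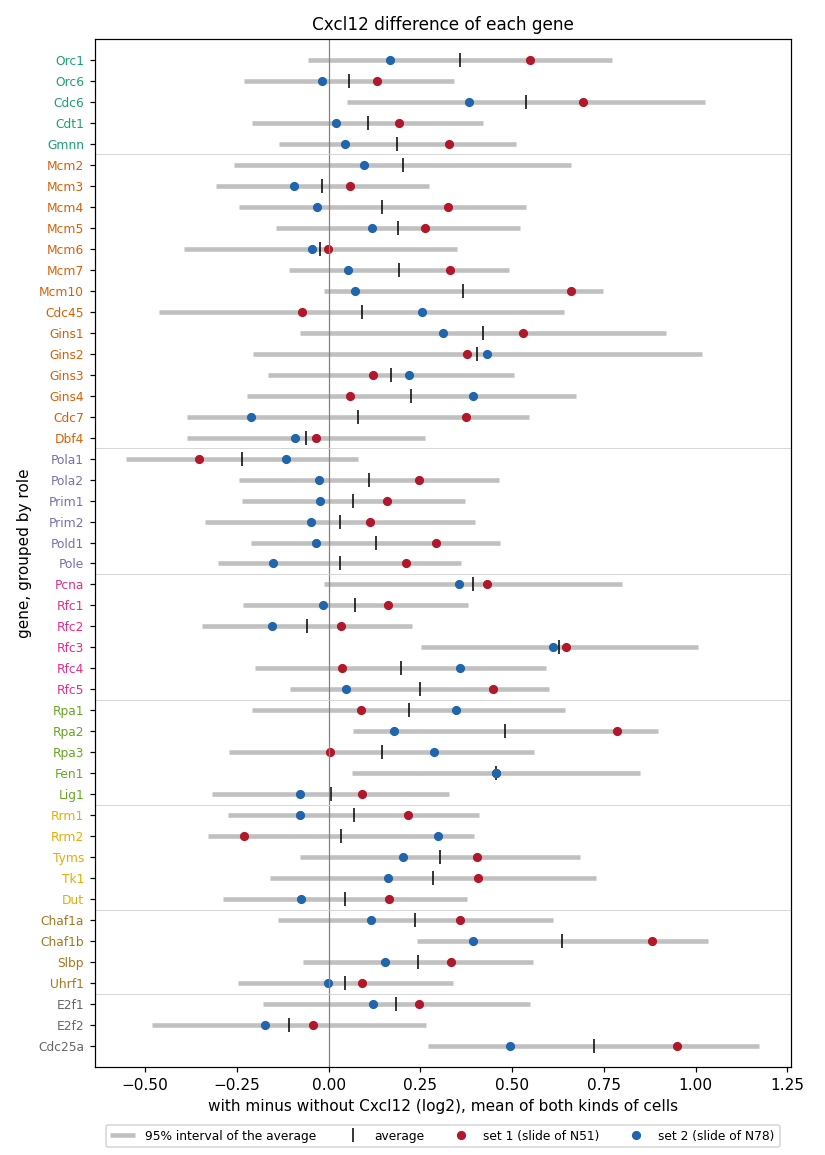
Difference with minus without Cxcl12 (horizontal axis, log2, mean of FLT3/ITD and wild type cells) of each gene (vertical axis, grouped and coloured by role); black ticks are averages with their 95% intervals in grey, red points set 1 and blue points set 2. Of the 48 averages 42 lie above 0, and those of Cdc25a, Chaf1b and Rfc3 are the farthest, at 0.72, 0.64 and 0.63.

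By role, all 5 origin genes had positive Cxcl12 differences (median 0.19), as did 5 of 5 single strand and Okazaki fragment genes (0.22), 5 of 5 nucleotide supply genes (0.07), 4 of 4 chromatin genes (0.24) and 5 of 6 clamp genes (0.22). Of the 14 helicase genes 11 were positive (0.18), and of the 6 polymerase genes 5 (0.05). The genes below 0 were Pola1, E2f2, Dbf4, Rfc2, Mcm6 and Mcm3, and Mcm3 and Mcm6, helicase subunits, lay at -0.02 each.

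Whether the Cxcl12 difference itself differed between FLT3/ITD and wild type cells was tested as an interaction, FLT3/ITD minus wild type. No gene passed, against 0% of features, and at an unadjusted p under 0.05 there were 0 of 48, against 1.7%. The values ran from -0.46 (SE 0.39) for Tk1 to 0.32 (SE 0.37) for Orc1, with an adjusted p near 1. For Rfc3 the interaction was 0.22, with a 95% interval of -0.54 to 0.97, which shows how wide the difference of the responses stays with 2 arrays a group.

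Other genes of the pathway, taken as whole lists, held 3 genes that passed. In the average ITD difference, where 6.14% of all features passed, 1 of 30 further fork and origin genes rose and 0 fell, Pold2, the second subunit of polymerase delta, by 0.86 (SE 0.18, adjusted p = 0.0305). Its partner Pold1 had 0.23, as given above. Of 17 further nucleotide supply genes measured 0 passed, though 12 of them were positive with a median of 0.37. Of 22 E2F, RB and cyclin genes measured, Ccnd2 rose by 0.61 (SE 0.14, adjusted p = 0.0358) and Rbl2 fell by 0.93 (SE 0.19, adjusted p = 0.0281). Ccnd2 encodes cyclin D2, which starts RB phosphorylation, and Rbl2 the RB relative p130, which represses E2F targets in resting cells. Of 26 checkpoint and repair genes 0 passed, and of 31 mitosis genes 0.

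In the average Cxcl12 difference none of these 5 lists held a passing gene. E2F, RB and cyclin genes had a median Cxcl12 difference of 0.29, with 18 of 22 above 0, and further fork and origin genes 0.10, with 21 of 30. Further nucleotide supply genes had 0.16, with 11 of 17 above 0, checkpoint and repair genes 0.09, with 17 of 26, and mitosis genes 0.04, with 18 of 31. The set difference was negative for 29 of 30 further fork and origin genes (median -0.39) and for 14 of 17 nucleotide supply genes (-0.44), but for 11 of 22 E2F, RB and cyclin genes (0.00).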

How the data were processed

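mRNA of 8 Ba/F3 samples was read on Agilent arrays, 1 array per sample and 4 groups of 2. Per the file headers, background subtraction and detrending within each array gave the deposited processed intensity, made by Agilent Feature Extraction (9.5.1.1 in set 1, 10.7.3.1 in set 2) with no scaling between arrays. The deposited foreground and background intensity columns, and the authors' normalized intensity tables, served as alternatives. Once the median offset was removed, columns of those tables lay within 0.01 log2 of a single array for nearly all probes.

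Here log2 of the processed intensity was taken and each array's 75th percentile subtracted. Control spots were left out and outlier spots set to missing. Probes had to be well above background on the 2 arrays of some group (21126 of 41174 probes did), and the brightest kept probe stood for a gene. Of the 48 genes 15 had several kept probes, and in the average ITD difference 3 of these 15 had probes of opposite sign. In the average Cxcl12 difference 4 of the 15 did, and in the set difference 6. Probe coordinates are mm9 from the files, with no exon annotation used here.

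All features were fitted with limma 3.58.1 (R 4.3.3), with 4 group means, array set as block and an intensity trend, leaving 3 residual degrees of freedom (2 with the set by ITD term), and tested at a Benjamini-Hochberg adjusted p under 0.05. The slide in the headers gives the pairing. Deviations from group means correlated at 0.730 to 0.878 within sets. Nothing says that arrays came from separate cultures, so p-values measure the spread between these arrays, and the small number of arrays limits precision.

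The 48 members and the other lists were chosen with earlier results of these data known. Full values are given for genes past the test, for the highest and lowest average ITD and the largest Cxcl12 difference in each role group, and for E2f1, Pcna, Mcm2, Cdc6, Rrm2 and Tyms. The fit was tested on simulated data. Other scalings, background correction, probe filters, probe choice, outliers, trend, the block and each array were varied.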

Additional observations from a re-analysis of the deposited data

How the results depend on the processing

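The median of the average Cxcl12 difference stayed above 0 under all alternatives but normexp on all spots, while in FLT3/ITD cells it turned to -0.020 without the N51 array without Cxcl12. Normexp on all spots moved the medians of the 48 genes to 0.38 for the average ITD difference, 0.68 for ITD with Cxcl12, -0.15 for the average Cxcl12 difference, -0.51 for Cxcl12 in wild type cells, 0.68 for the interaction and -1.06 for the set difference. With the aberrant spots of 1 array left out, an alternative added after seeing the data, none of these medians moved beyond the spread. For comparisons with a value in each set, the spread was the standard deviation of the 2 set medians. It was 0.26 for the average ITD difference and 0.33 for the interaction, so it is a loose limit where the sets differ. For Cxcl12 in wild type cells median scaling gave 0.31 and the authors' values gave 0.30, against 0.18. The single call of the average ITD difference, Rfc2, kept its direction throughout but was lost, leaving 0 genes, with no replicate block (-0.54, adjusted p = 0.961), normexp (-0.12, 0.893), median scaling (-0.41, 0.140), the authors' tables (-0.41, 0.143), no filter on dim probes (-0.54, 0.129), the mean of kept probes (-0.51, 0.0550), no intensity trend (-0.54, 0.0974) and normexp without aberrant spots (-0.50, 0.0616). It kept the call with quantile normalization (-0.65, 0.0153), with probes above background on all 8 arrays (0.0370) and with outlier spots kept (0.0447). In the set difference 1 gene passed with median scaling (Gins2) and 2 with the authors' tables (Gins2 and Mcm2). Leaving out each array gave 0 to 2 such genes and 0 to 0 in every other comparison. Medians then ranged from -0.13 to 0.14 for the average ITD difference, -0.26 to 0.26 for ITD without and -0.14 to 0.09 for ITD with Cxcl12, 0.07 to 0.28 for average Cxcl12, 0.034 to 0.27 in wild type and -0.020 to 0.39 in FLT3/ITD cells, -0.20 to 0.27 for the interaction and -0.56 to -0.11 for the set difference, and Rfc2 from -0.62 to -0.46. The share of the 48 genes above 0 in the average ITD difference moved with scaling (32 of 48 with median scaling, 31 with the authors' tables, 13 with quantile normalization, 23 in the main analysis), as median scaling moved all features to 0.12. Over all alternatives the number of features past the test ran from 0 to 1316 for the average ITD difference (850 in the main analysis), 0 to 178 for ITD without Cxcl12 (70), 0 to 203 with Cxcl12 (116), 0 to 209 for average Cxcl12 (53), 0 to 13 in wild type (9) and 0 to 52 in FLT3/ITD cells (0), 0 to 20 for the interaction (0) and 7 to 626 for the set difference (57).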
